A study of Mus musculus with 18 samples.

Results

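Estradiol (E2) was compared with vehicle in the liver of ob/ob mice, which lack leptin and become obese on a normal diet. All 6 libraries that the labels assign to these groups were taken, of 18 libraries in the series. They were E2 libraries L1, L12 and L19 and vehicle libraries L3, L8 and L13. Within each group they are numbered here as replicates 1, 2 and 3, in that order. Of 40840 genes in the count table, 13433 had enough reads to be tested. The wider study asked how E2 and PaPE-1, an estrogen that favours extranuclear signalling of the estrogen receptor, act on the fatty liver of ovariectomized mice, in diet-induced obese (DIO) and in ob/ob animals.

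The E2 group and the vehicle group were both female C57BL/6 ob/ob mice without ovaries, so that little estrogen of their own was left in the controls, and both were housed singly on the AIN-76A diet. E2 was released at 5 µg per kg per day from an osmotic minipump for 6 weeks, and the vehicle pump held DMSO, ethanol and saline. The study states 3 biological replicates per group, although the sample records speak of a smaller number of sequenced samples per group. Leptin (Lep) had 0 counts in all 6 libraries, which allows up to 0.262 CPM in the shallowest of them (3 counts, counting error only). Liver is not the source of leptin, so this value does not check the genotype.

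In liver, E2 acts mainly through estrogen receptor α, a nuclear receptor that binds DNA directly or through other factors. It also acts from outside the liver, since estrogens change the pattern of growth hormone release by the pituitary, and that pattern sets through STAT5 which hepatocyte genes are expressed in females and which in males. Estrogens are further known to act on liver lipid handling, on the secretion of clotting factors and carriers, on endothelial cells and on blood cell formation.

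Total counts were 16446651, 15839134 and 15204361 in the E2 libraries, against 15364810, 10470665 and 16911262 in the vehicle libraries. Levels are in CPM, counts scaled to a common library size after TMM normalization. Changes are log2 fold changes of E2 over vehicle, each with its standard error (SE). Adjusted p-values are from edgeR's quasi-likelihood test over all genes tested, and a gene is said to have risen or fallen where this value was under 0.05. With 3 livers in each group, the smallest p of an exact two-sided permutation test is 0.1, so no such test was run for single genes.

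E2 and vehicle livers were apart across the transcriptome. The first principal component held 57.5% of the variance, and the E2 libraries lay at -21.6, -42.5 and -31.8 on it, against 25.7, 41.1 and 29.1 for the vehicle libraries. Of the genes tested, 1318 (9.81%) rose and 1654 (12.3%) fell, 22.1% in either direction, and the median over all genes was 0.01. These shares are the background for the counts of each gene list below. Most changes were moderate, with a median size of 0.63 among the called genes. With a fold above 2 as a further condition, 362 genes (2.69%) rose and 250 (1.86%) fell. E2 library L12 weighed most on these numbers, and without it 344 genes rose and 434 fell. Without vehicle library L13 the numbers were 708 and 1017, and without E2 library L19 they were 634 and 812. Of 116 called genes that are named here, 68 stayed past the threshold in every alternative run, and 46 lost their call without L12, with adjusted p-values of up to 0.174 (edgeR).

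**Figure D1:**
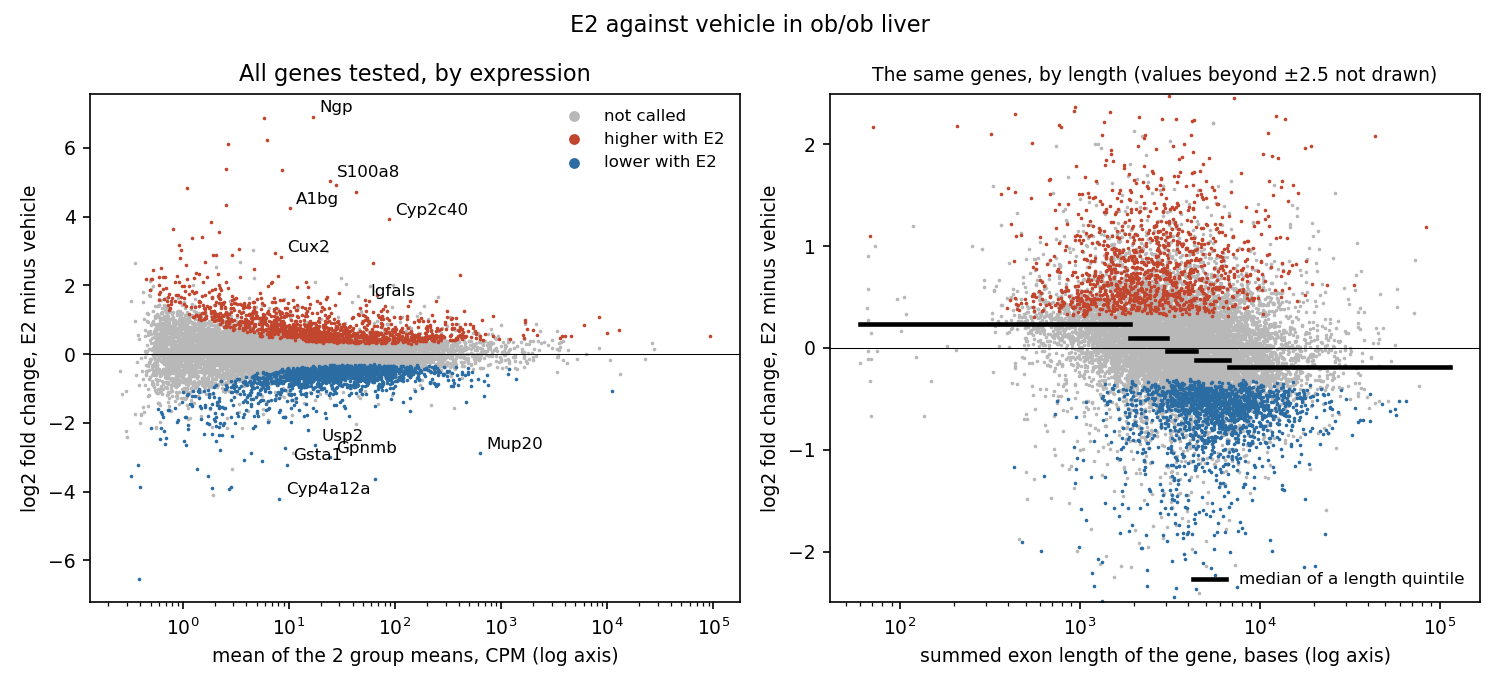
Log2 fold change of E2 over vehicle for each gene tested, against its mean level in CPM (left) and its summed exon length in bases (right), both on log axes, with called genes in colour. Black lines on the right are medians of length quintiles, which run from 0.23 for the shortest genes to -0.19 for the longest.

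Fold changes moved with gene length. In the quintile of genes with the shortest summed exons (60 to 1896 bases) the median log2 fold change was 0.23, with 499 genes higher and 83 lower. In the quintile with the longest exons (6776 to 114472 bases) the median was -0.19, with 116 higher and 594 lower. After each library's trend on length was removed, these counts became 161 and 205 for the shortest quintile and 203 and 341 for the longest, and over all genes 1008 rose and 1403 fell. Ribosomal proteins and complex I subunits lost most of their calls with this step.

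Among the estrogen receptors, Esr1, which encodes estrogen receptor α, rose in E2 livers. It had 25.4, 19.2 and 20.9 CPM in E2 livers, against 17.8, 10.4 and 10.6 CPM in vehicle livers. Every E2 liver was above every vehicle liver, with L3 the highest vehicle liver and close to the lowest E2 liver. The log2 fold change was 0.75 (SE 0.22, adjusted p = 0.0275 with edgeR's quasi-likelihood test), and the call was lost in 5 of the fits that left out a library, with adjusted p-values of up to 0.0959. Gper1, a membrane estrogen receptor, had 1 count in each E2 library and 0 in each vehicle library, too few to test. Esr2, which encodes estrogen receptor β, had too few counts as well. Of 15 receptors and coregulators tested, 1 rose and 6 fell, with a median of -0.38. The coactivator Ep300, an acetyltransferase, had 14.5, 8.27 and 13.1 CPM in E2 livers, against 23.3, 21.5 and 24.7 CPM in vehicle livers, without overlap. Its log2 fold change was -0.96 (SE 0.17, adjusted p = 0.00461, edgeR). The coactivators Ncoa1 and Ncoa2, the pioneer factor Foxa1 and the metabolic coactivators Ppargc1a and Ppargc1b fell by 0.50 to 0.76. Without E2 library L12, 0 of the 15 rose and 1 fell, and without L19, 0 rose and 3 fell. After removal of each library's trend with gene length 1 rose and 4 fell, with a median of -0.24.

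Genes known to respond to estrogen in uterus and breast moved both ways, more often up. Of 11 tested, 8 were above 0 and 3 below, where 50.6% of all genes tested were above 0. The test called 4 higher and 1 lower, against 9.81% and 12.3% of all genes tested, and the median was 0.17. Agt, which encodes angiotensinogen, rose by 0.58 (SE 0.15), and the chemokine gene Cxcl12 by 0.41 (SE 0.13). Ltf, which encodes lactoferrin, had the largest increase of the list, with 6.27, 29.2 and 15.6 CPM in E2 livers, against 0.259, 0.0873 and 0.768 CPM in vehicle livers (adjusted p = 0.021, edgeR, and up to 0.0718 without single libraries). It is also a neutrophil granule gene, and 14 of 19 neutrophil markers rose with it. Their part in its value was not tested. The proto-oncogene Myc fell by 0.94, with 4.49, 7.35 and 8.76 CPM in E2 livers, against 12.6, 11.8 and 14.9 CPM in vehicle livers. The number tested changed when single libraries were left out. Without E2 library L12, 1 of 13 rose and 0 fell, and without L19, 2 of 13 rose. Without L8 and without L13, 2 of 12 rose.

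Some targets and feedback inhibitors of the growth hormone axis rose in E2 livers. Of 17 genes of this axis tested, 6 rose and 0 fell, where 9.81% of all genes tested rose. The other 11 were not called. The list's median was 0.63, with 5 genes below 0 and values from -1.28 to 2.84. The receptor itself did not pass the test: Ghr had 482, 366 and 357 CPM in E2 livers, against 472, 357 and 410 CPM in vehicle livers (log2 fold change -0.04, SE 0.15, adjusted p = 0.876, edgeR). The prolactin receptor gene Prlr had 196, 132 and 127 CPM in E2 livers, against 83.5, 51.4 and 80.4 CPM in vehicle livers, and rose by 1.08 (SE 0.21, adjusted p = 0.00663, edgeR).

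Among the targets, Igf1, the circulating growth factor that growth hormone induces, had 442, 483 and 471 CPM in E2 livers, against 303, 183 and 186 CPM in vehicle livers. The groups did not overlap, and L3 was the highest vehicle liver. Igfals, whose product holds IGF1 in the blood, had 83.0, 81.3 and 68.1 CPM in E2 livers, against 27.2, 21.4 and 29.6 CPM in vehicle livers. Its log2 fold change was 1.57 (SE 0.19, adjusted p = 0.00143, edgeR), and that of Igf1 was 1.06 (SE 0.19, adjusted p = 0.00437). Cish and Socs2, feedback inhibitors of STAT5 signalling, rose as well. Cish had 16.8, 18.7 and 14.7 CPM in E2 livers, against 10.1, 6.11 and 7.39 CPM in vehicle livers. Socs2 had 15.8, 17.8 and 15.7 CPM in E2 livers, against 8.04, 4.63 and 3.78 CPM in vehicle livers, and its log2 fold change of 1.58 (SE 0.31) was above that of Cish (1.08, SE 0.20). Each of the 6 called genes stayed past the threshold in every alternative run.

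Promoters of 4 genes that rose are shown because they hold the letters TTCNNNGAA, the core that STAT5 binds, on which growth hormone acts. The sequences are from RefSeq on build GRCm38.p6 and run from 250 bases before to 50 bases after a start site, 300 bases in all, 5′ to 3′ on the gene's strand. Capitals mark the matches. The A1bg promoter lies at chr15:60921221-60921520 on the minus strand, with its match starting 84 bases before the start site, and the Cish promoter at chr9:107296409-107296708 on the plus strand, with 2 matches just after the start site. The Igfals promoter lies at chr17:24877981-24878280 on the plus strand, with its match 58 bases before the start site, and the Prlr promoter at chr15:10223656-10223955 on the plus strand, with its match 110 bases before the start site.
A1bg: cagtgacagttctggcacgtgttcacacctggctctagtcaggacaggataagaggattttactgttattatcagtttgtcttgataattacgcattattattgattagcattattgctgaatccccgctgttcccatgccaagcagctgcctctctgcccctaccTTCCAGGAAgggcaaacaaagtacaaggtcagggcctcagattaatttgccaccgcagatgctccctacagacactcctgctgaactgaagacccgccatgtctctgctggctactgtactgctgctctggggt
Cish: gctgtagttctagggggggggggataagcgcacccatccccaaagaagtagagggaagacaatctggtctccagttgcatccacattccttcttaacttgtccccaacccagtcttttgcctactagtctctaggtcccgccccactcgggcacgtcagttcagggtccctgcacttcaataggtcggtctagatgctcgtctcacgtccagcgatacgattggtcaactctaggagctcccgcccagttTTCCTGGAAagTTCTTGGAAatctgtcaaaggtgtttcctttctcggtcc
Igfals: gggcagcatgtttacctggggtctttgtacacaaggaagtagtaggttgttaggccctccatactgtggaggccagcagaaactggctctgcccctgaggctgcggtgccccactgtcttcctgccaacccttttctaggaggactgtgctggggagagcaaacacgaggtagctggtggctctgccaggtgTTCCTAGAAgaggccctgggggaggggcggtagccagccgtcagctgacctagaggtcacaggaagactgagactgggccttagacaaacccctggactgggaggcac
Prlr: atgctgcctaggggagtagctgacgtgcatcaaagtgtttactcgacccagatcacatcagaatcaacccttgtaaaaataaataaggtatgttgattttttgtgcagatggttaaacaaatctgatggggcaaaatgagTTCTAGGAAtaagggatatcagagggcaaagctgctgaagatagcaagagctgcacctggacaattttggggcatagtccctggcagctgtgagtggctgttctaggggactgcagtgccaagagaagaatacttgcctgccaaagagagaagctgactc

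This motif is a palindrome, so 1 search covers both strands. Its letters occurred in 2582 of 27025 genes with a promoter in the table (9.55%) and in 895 of 10682 tested genes (8.38%). Among genes that rose they were found in 103 of 1050 (9.81%), and among genes that fell in 93 of 1323 (7.03%). Of the 6 called growth hormone genes, 5 had a promoter in the table and 3 of these held a match. Igfals and Prlr each have several start sites, of which some have none. Promoters of Gsta1, Arsa, Nox4 and Trak2, which fell, held a match too. Those of Cux2, Igf1, Cyp2c40 and Cyp2c69, which rose, held none. The palindromic estrogen response element, GGTCA followed after 3 free bases by its reverse complement TGACC, was in 20 of 27025 genes (0.074%), in 1 of 10682 tested genes (0.00936%), and in 0 of the 1050 genes that rose and 0 of the 1323 that fell. A match describes the letters of this window only.

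Genes expressed more in female than in male liver rose in part. Of 32 tested, 14 rose and 2 fell, with a median of 0.77, and 10 to 15 rose when single libraries were left out, with 0 that fell without L12, L19 or L13. Cux2, a homeobox factor of female liver that represses male-biased genes, had 16.1, 13.5 and 14.6 CPM in E2 livers, against 1.10, 1.48 and 3.43 CPM in vehicle livers. The groups were far apart (log2 fold change 2.84, SE 0.41, adjusted p = 0.00364, edgeR). A1bg, a plasma glycoprotein gene, had 29.8, 11.03 and 17.5 CPM in E2 livers, against 0.713, 1.40 and 1.005 CPM in vehicle livers. L1 was the highest E2 liver and L12 the lowest, and the log2 fold change was 4.25 (SE 0.41, adjusted p = 0.00107, edgeR). Cyp2c40, a cytochrome P450 that acts on arachidonic acid, had 190, 153 and 154 CPM in E2 livers, against 7.78, 7.86 and 16.8 CPM in vehicle livers (log2 fold change 3.92, SE 0.45). Cyp2c69 had 77.4, 44.5 and 41.6 CPM in E2 livers, against 1.10, 2.01 and 2.31 CPM in vehicle livers (4.91, SE 0.60). Cyp2c genes are near-identical in sequence, so that the split of reads between them is uncertain. Of the 32 genes, 27 were highest in L1 among the E2 livers.

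Genes expressed more in male liver moved both ways. Of 24 tested, 4 rose and 7 fell, with a median of -0.17, where 9.81% of all genes tested rose and 12.3% fell. Mup20, which encodes a male urinary pheromone protein, had 164, 136 and 158 CPM in E2 livers, against 753, 1078 and 1542 CPM in vehicle livers. It fell by 2.88 (SE 0.40, adjusted p = 0.00463, edgeR), while its relative Mup3 rose by 1.10 (SE 0.27), with 1531, 978 and 910 CPM in E2 livers, against 374, 488 and 731 CPM in vehicle livers. Reads of major urinary protein genes can be shared between copies, so both values are uncertain. Cyp2d9, a testosterone hydroxylase with close relatives, had 81.7, 66.2 and 54.2 CPM in E2 livers, against 113, 286 and 236 CPM in vehicle livers, and fell by 1.65 (SE 0.35), with an adjusted p of 0.0147 (edgeR) and of 0.0724 without L12. Cyp4a12a, a fatty acid hydroxylase with a near copy, had 0.462, 1.18 and 0.870 CPM in E2 livers, against 30.6, 6.11 and 9.81 CPM in vehicle livers, with L3 the highest (adjusted p = 0.0112, edgeR, and 0.0586 without L12). The superoxide-forming oxidase Nox4 fell by 0.72 (SE 0.17). Without E2 library L12, 1 of the 24 rose and 2 fell, and without L19, L8 or L13 in turn, 1 rose and 4 to 6 fell.

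**Figure D2:**
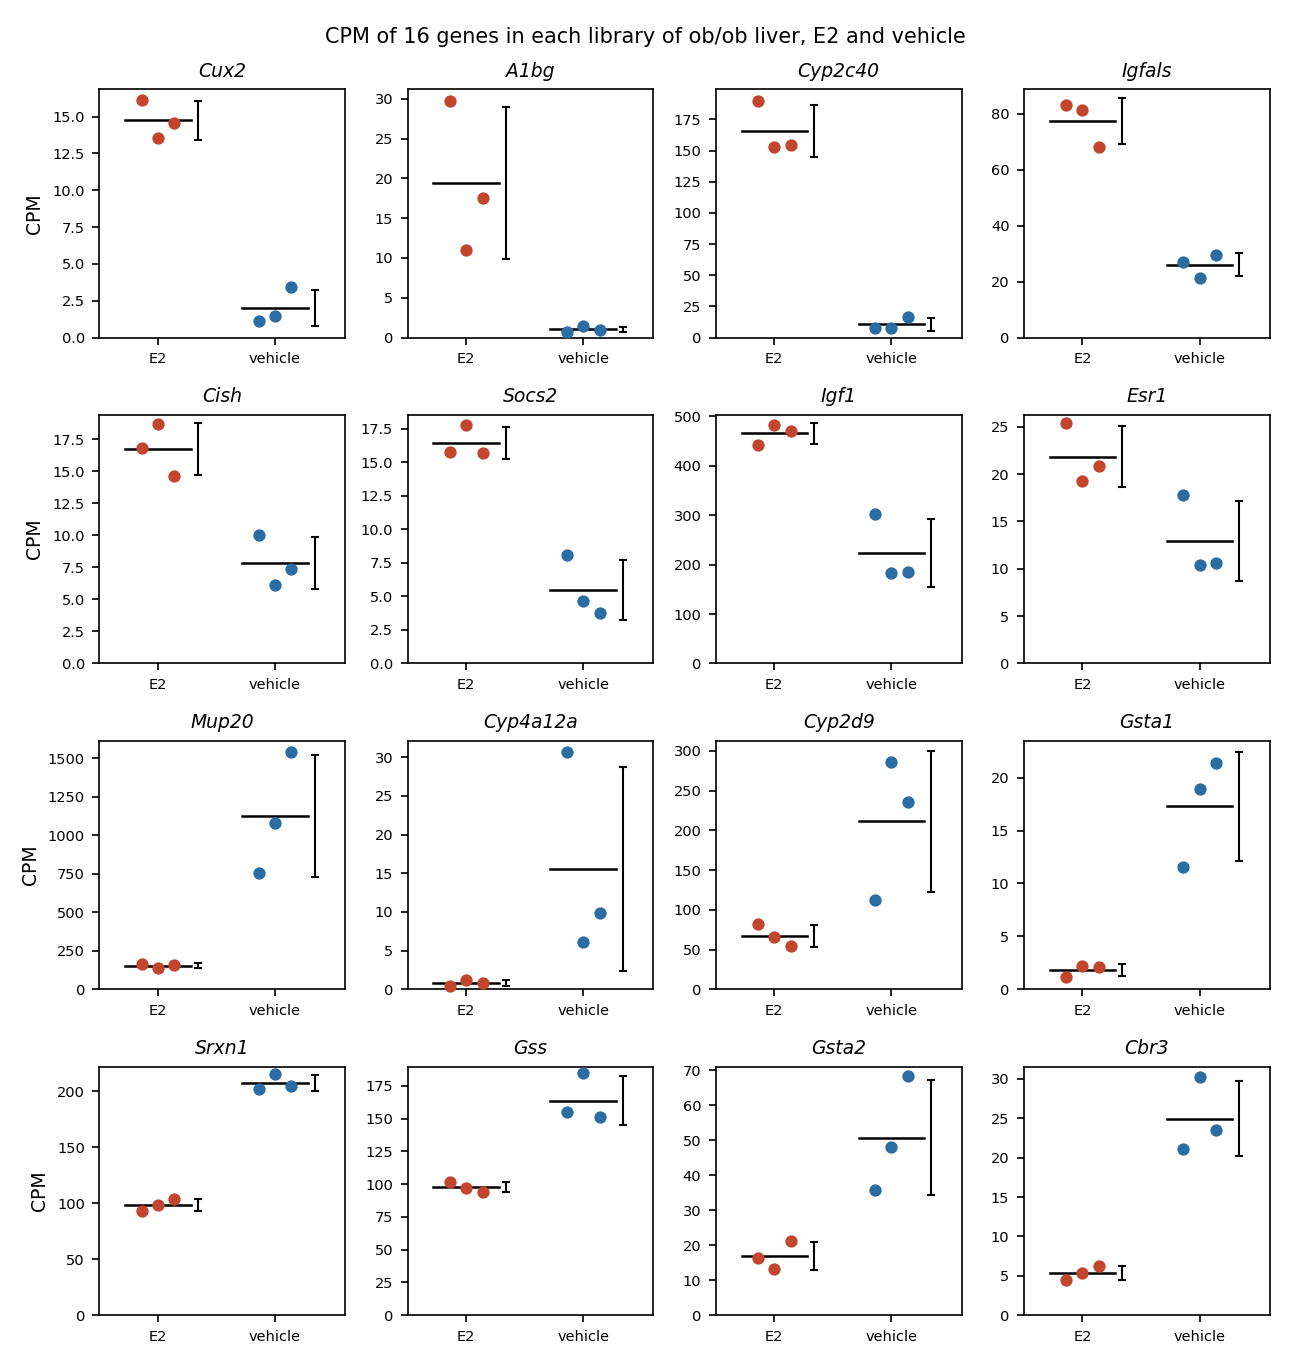
CPM of 16 genes in each E2 library (left) and each vehicle library (right) of ob/ob liver, 1 panel per gene, with the group mean (line) and SD (bar) of 3 libraries. The Cux2, A1bg, Cyp2c40, Igfals and Igf1 points of E2 livers all sit above those of vehicle livers, and the Mup20, Gsta1, Srxn1 and Cbr3 points all sit below.

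Glutathione and NRF2 target genes, which detoxify electrophiles and peroxides, fell more often than they rose. Of 30 tested, 13 fell and 3 rose, with a median of -0.26, where 12.3% of all genes tested fell and 9.81% rose. Without single libraries 9 to 12 fell. Gsta1, a glutathione transferase, had 1.19, 2.23 and 2.14 CPM in E2 livers, against 11.5, 18.9 and 21.4 CPM in vehicle livers. It fell by 3.22 (SE 0.29, adjusted p = 0.000374, edgeR). Its near copy Gsta2 had 16.4, 13.3 and 21.2 CPM in E2 livers, against 35.8, 48.0 and 68.3 CPM in vehicle livers, and reads can be shared between them.

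Srxn1, which repairs oxidized peroxiredoxins, had 93.0, 98.4 and 104 CPM in E2 livers, against 202, 216 and 205 CPM in vehicle livers, with little spread in either group (-1.08, SE 0.12, adjusted p = 0.000857, edgeR). Glutathione synthetase (Gss) fell by 0.75 (SE 0.11), glutathione reductase (Gsr) by 0.68 (SE 0.12) and Gsta4, which clears lipid peroxidation products, by 0.68 (SE 0.12). Ugdh, which makes UDP-glucuronic acid for conjugation, fell by 0.88 (SE 0.16). Gstt1, a transferase of the theta class, went the other way, with 458, 470 and 411 CPM in E2 livers, against 272, 194 and 266 CPM in vehicle livers (0.87, SE 0.16). Cbr3, a carbonyl reductase outside this list, had the smallest p among the genes that fell, with 4.49, 5.38 and 6.29 CPM in E2 livers, against 21.1, 30.3 and 23.5 CPM in vehicle livers (-2.21, SE 0.19, adjusted p = 0.000206, edgeR).

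**Figure D3:**
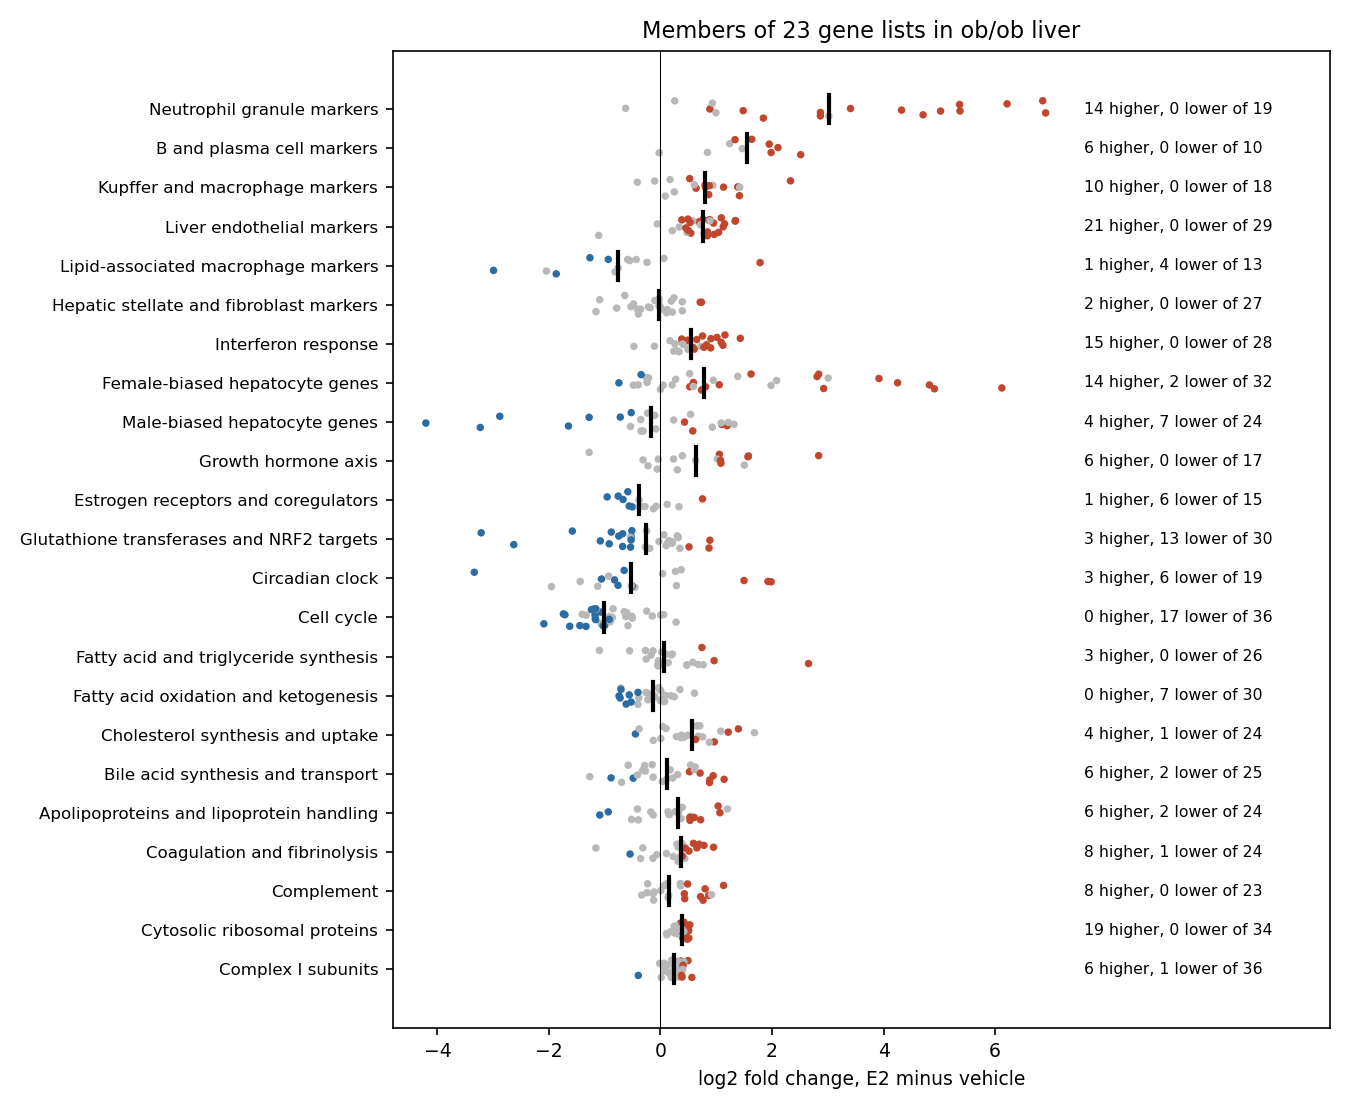
Log2 fold change of E2 over vehicle for each member of 23 gene lists, with members that rose in red, those that fell in blue and the others in grey, and the list median as a black bar. The neutrophil list has the highest median, 3.02, and the cell cycle list a median of -1.01.

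Transcripts of neutrophil granules, which neutrophil precursors make, were higher in E2 livers. Of 19 markers tested, 14 rose and 0 fell, with a median of 3.02, and every E2 library exceeded every vehicle library in 16, as it did in 20.7% of all genes tested. Relative to the vehicle mean, the list averaged 1.63, 3.03 and 2.42 log2 units in E2 livers, against -0.14, 0.18 and -0.04 in vehicle livers. The summed level of the 19 overlapped between groups, with 188, 527 and 358 CPM in E2 livers, against 95.7, 229 and 148 CPM in vehicle livers. Ngp, Camp, Mpo, Ltf, S100a8 and S100a9 encode granule proteins and the subunits of calprotectin. They were among the 7 largest increases of called genes with groups apart and a level averaging 10 CPM or more in either group. They reached that average in the E2 group only. Mpo, the myeloperoxidase gene, had 3.30, 23.97 and 10.1 CPM in E2 livers, against 0.259, 0.0873 and 0.118 CPM in vehicle livers (adjusted p = 0.0103, edgeR). S100a9 had 36.5, 132 and 80.8 CPM in E2 livers, against 2.46, 3.93 and 3.25 CPM in vehicle livers (adjusted p = 0.0354, edgeR, and 0.113 without L12). Ngp, Ltf, S100a8 and S100a9 each lost their call in 5 of the 6 fits that left out a library. Many single markers were low. Mmp8, a neutrophil collagenase, had 1.12, 4.27 and 2.94 CPM in E2 livers, against 0.195, 0.436 and 0.177 CPM in vehicle livers. Csf3r, the receptor for the cytokine that drives neutrophil formation, had 4.42, 6.89 and 7.16 CPM in E2 livers, against 2.27, 2.27 and 2.07 CPM in vehicle livers (1.48, SE 0.35, adjusted p = 0.0127, edgeR, and 0.0601 without L12). L12 was the highest E2 liver in 16 of 19 and L1 the lowest in 17, and the number that rose was 5 of 19 without L12 and 9 of 19 without L19. More markers had enough reads to be tested without L13, where 9 of 24 rose, and without L1, where 19 of 24 rose. A filter of at least 10 counts in every library left 7 markers, of which 4 rose.

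B cell and plasma cell markers rose in 6 of 10, with a median of 1.55. Ighm, the immunoglobulin heavy chain of naive B cells, had 13.1, 25.1 and 19.5 CPM in E2 livers, against 8.24, 1.92 and 4.43 CPM in vehicle livers. Cd79b, part of the B cell receptor, had 2.51, 4.27 and 3.28 CPM in E2 livers, against 1.62, 0.873 and 0.709 CPM in vehicle livers (1.64, SE 0.37, adjusted p = 0.00935, edgeR). Igkc, the kappa light chain gene, had 7.66, 17.2 and 9.499 CPM in E2 livers, against 4.02, 0.873 and 2.84 CPM in vehicle livers (2.11, SE 0.52). This count rested on L12, with 0 that rose without it, on L13, with 1, and on L19, with 3. In T and NK cell markers 1 of 10 rose, in megakaryocyte and platelet markers 0 of 7 were called, and in erythroid markers 1 of 11 rose and 1 fell. In bulk tissue more cells of a type and more RNA per cell cannot be told apart.

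Markers of liver endothelium, sinusoidal and general, rose in 21 of 29, with 0 that fell and a median of 0.76. Of all genes tested, 9.81% rose. Clec4g, a lectin of sinusoidal cells, had 65.0, 67.8 and 68.2 CPM in E2 livers, against 26.2, 26.5 and 26.4 CPM in vehicle livers, nearly equal within each group (1.34, SE 0.13, adjusted p = 0.000374, edgeR). Egfl7, an endothelial secreted factor, rose by 1.34 (SE 0.17) and the TGF-β co-receptor Eng by 1.04 (SE 0.14). Oit3, the inhibitory Fc receptor gene Fcgr2b and the DNase gene Dnase1l3 rose by 1.15 (SE 0.15), 0.97 (SE 0.13) and 0.95 (SE 0.13). Kdr, the main VEGF receptor, had 37.4, 38.7 and 41.5 CPM in E2 livers, against 24.3, 20.8 and 24.2 CPM in vehicle livers. Between 16 and 21 markers rose when single libraries were left out. The summed level of all 29 was 788, 922 and 921 CPM in E2 livers, against 490, 476 and 544 CPM in vehicle livers.

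Resident macrophage markers rose alongside. Of 18 Kupffer cell and macrophage markers, 10 rose and 0 fell, with a median of 0.80, and 6 rose without L12. The shares over all genes tested were 9.81% and 12.3%. Their summed level was 944, 1171 and 1253 CPM in E2 livers, against 719, 650.1 and 812 CPM in vehicle livers. The Kupffer cell lectin Clec4f had 152, 204 and 216 CPM in E2 livers, against 84.0, 51.4 and 83.1 CPM in vehicle livers (1.38, SE 0.21, adjusted p = 0.00355, edgeR). The complement genes C1qa, C1qb and C1qc, which these cells make, rose by 1.13, 0.87 and 0.80. Markers of lipid-associated macrophages went mostly the other way: of 13, 4 fell and 1 rose, with a median of -0.76. Cd63, a lysosomal membrane protein, had 53.3, 95.0 and 94.3 CPM in E2 livers, against 192, 245 and 146 CPM in vehicle livers. Gpnmb, a membrane glycoprotein, had 4.49, 4.33 and 7.63 CPM in E2 livers, against 32.4, 61.2 and 37.9 CPM in vehicle livers (adjusted p = 0.0163, edgeR, and 0.0821 without L12). The macrophage elastase Mmp12 fell by 1.87 (SE 0.40), and lipoprotein lipase (Lpl), which hepatocytes of fatty liver also make, had 41.8, 49.9 and 62.5 CPM in E2 livers, against 96.7, 96.7 and 102 CPM in vehicle livers (-0.94, SE 0.13, adjusted p = 0.00203, edgeR). Fabp5, a fatty acid carrier, rose by 1.79 (SE 0.47). Without L12, 1 of the 13 fell and 0 rose, and after removal of the length trend 6 fell and 0 rose.

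Antigen presentation and interferon response genes were higher. Of 28 interferon response genes, 15 rose and 0 fell, with a median of 0.54, where 9.81% of all genes tested rose. Irf7, the factor that amplifies the interferon response, had 52.2, 67.4 and 71.3 CPM in E2 livers, against 37.0, 36.5 and 29.0 CPM in vehicle livers (0.90, SE 0.15, adjusted p = 0.00314, edgeR). Ifitm3, an antiviral membrane protein outside the list, had 423, 488 and 443 CPM in E2 livers, against 240, 207 and 220 CPM in vehicle livers. The immunoproteasome subunit Psmb8 rose by 0.75 (SE 0.13). Of 13 MHC class II and dendritic cell markers, 5 rose, among them H2-Eb1 by 0.65 (SE 0.13). Without L12, 5 interferon genes rose, without L19, 7 rose, and without L13, 5 rose and 1 fell. The macrophage, neutrophil and endothelial markers given above moved with these genes, and their part in this result was not tested. Of 27 stellate cell and fibroblast markers, 2 rose and 0 fell, with a median of -0.03, and 0 of 10 cholangiocyte markers were called.

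**Figure D4:**
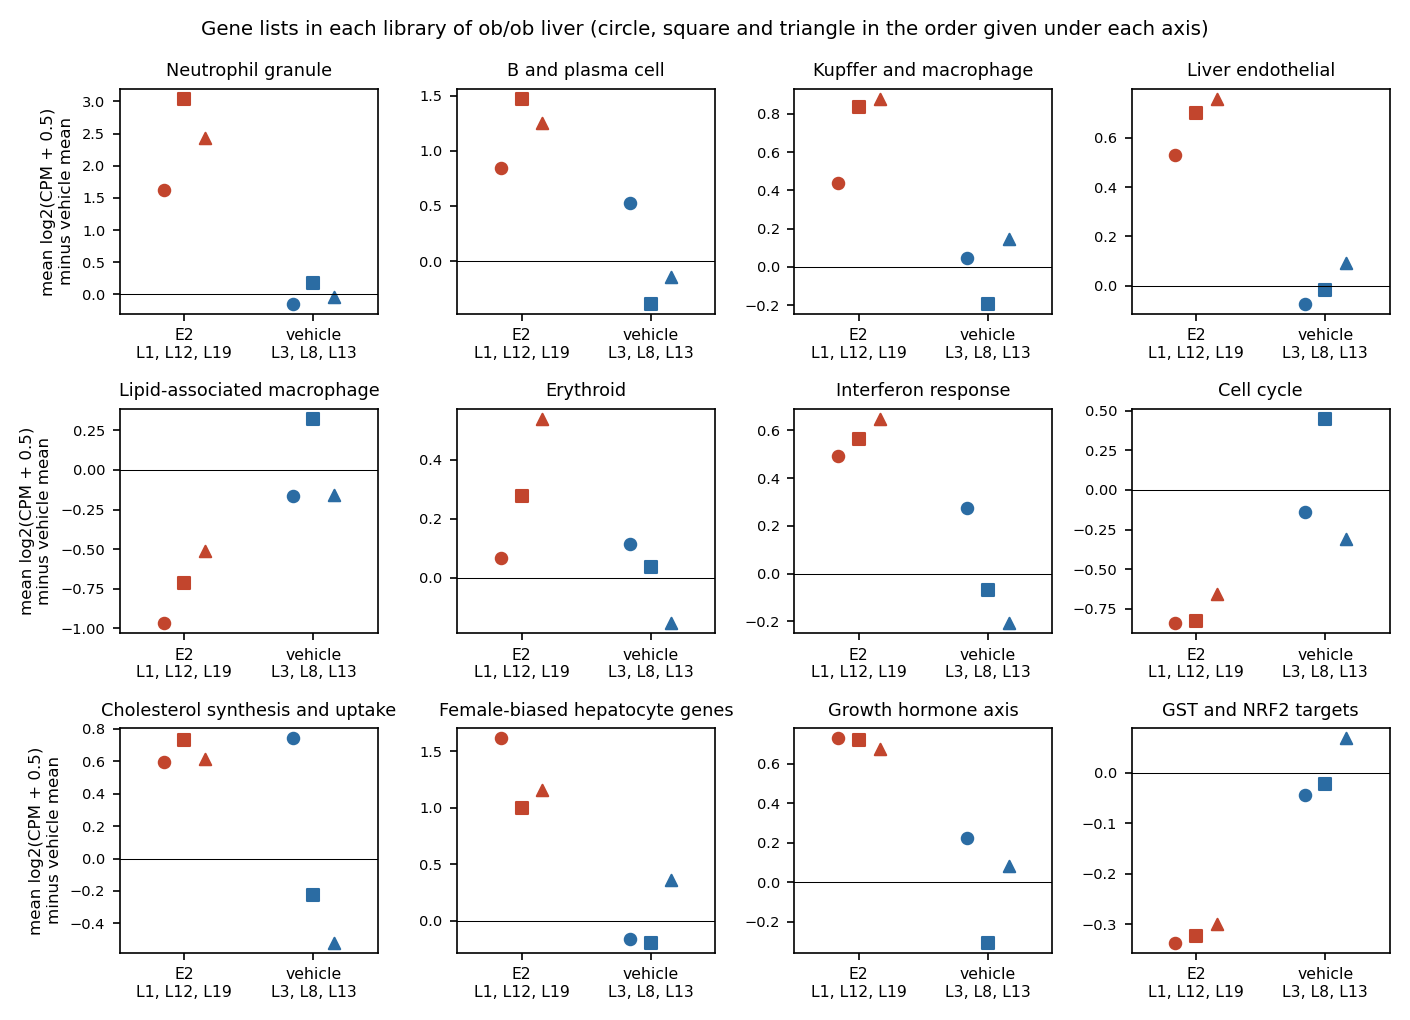
Mean log2(CPM + 0.5) over the members of 12 lists, 1 point per library, with the vehicle average set to 0, E2 left and vehicle right. Neutrophil values lie at 1.63, 3.03 and 2.42 in E2 livers, and cholesterol synthesis in vehicle library L3 stands at 0.74, above the other vehicle libraries.

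Cell cycle genes were lower in E2 livers. Of 36 tested, 17 fell and 0 rose, with a median of -1.01, and 19 had every E2 liver below every vehicle liver, where 20.8% of all genes tested did so. Ccne1 and Ccne2, the cyclins that start DNA replication, fell by 1.74 (SE 0.35) and 2.09 (SE 0.42). Ccne2 had 0.792, 0.788 and 0.736 CPM in E2 livers, against 3.63, 4.36 and 2.07 CPM in vehicle livers. Mki67, the proliferation marker, had 6.27, 6.30 and 5.89 CPM in E2 livers, against 10.2, 19.2 and 12.2 CPM in vehicle livers (-1.16, SE 0.27, adjusted p = 0.0134, edgeR, and 0.0632 without L12). Vehicle library L8 was the highest vehicle liver in 29 of 36, and the shallowest library. Without it 8 fell, without L12 3 fell, without L19 8 fell and without L1 10 fell.

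Clock genes shifted in both directions. Of 19, 3 rose and 6 fell, with a median of -0.52, where 9.81% of all genes tested rose and 12.3% fell. Arntl, which drives the clock, had 13.7, 10.8 and 6.29 CPM in E2 livers, against 2.40, 3.49 and 2.01 CPM in vehicle livers (1.99, SE 0.50, adjusted p = 0.0245, edgeR, and 0.0896 without L12). The CLOCK relative Npas2 and Nfil3, a repressor of clock output, rose by 1.93 (SE 0.46) and 1.5 (SE 0.25). Nr1d2, a repressor of Arntl, had 41.7, 30.9 and 42.1 CPM in E2 livers, against 72.2, 66.8 and 64.0 CPM in vehicle livers (-0.82, SE 0.14), and the output factors Tef and Hlf fell by 1.06 (SE 0.26) and 0.76 (SE 0.18). Dbp, another output factor, had 14.4, 23.8 and 74.9 CPM in E2 livers, against 94.7, 96.7 and 115 CPM in vehicle livers, and did not pass the test (adjusted p = 0.116, edgeR). L19 was near the vehicle livers for Dbp, and was the highest E2 library for 12 of the 19 genes. The hour at which each liver was taken is not given in the sources used here, so hour and treatment cannot be told apart. Without L12, 1 rose and 2 fell, and without L13, 2 rose and 3 fell.

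**Figure D5:**
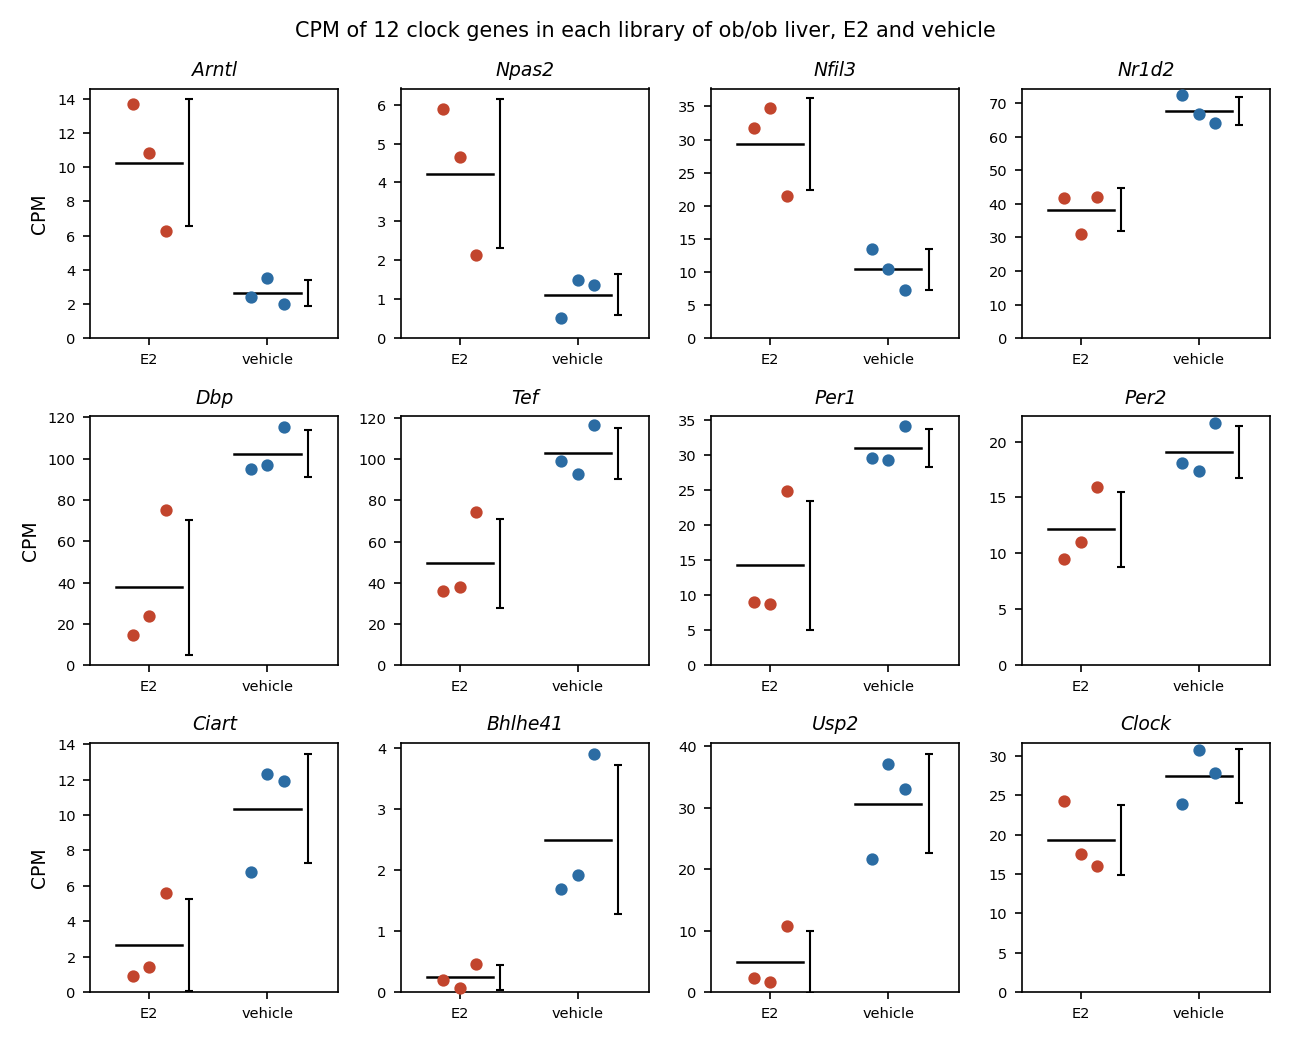
CPM of 12 clock genes in the E2 libraries (left) and vehicle libraries (right), with the group mean (line) and SD (bar) of 3 libraries. For Arntl the E2 values are 13.7, 10.8 and 6.29, and for Dbp the L19 value of 74.9 is apart from 14.4 and 23.8.

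Fatty acid synthesis changed in few genes. Of 26 tested, 3 rose and 0 fell, with a median of 0.06, where 9.81% of all genes tested rose and 12.3% fell. Pnpla3, a lipid droplet lipase induced by feeding, had 89.3, 133 and 97.5 CPM in E2 livers, against 28.5, 12.2 and 9.87 CPM in vehicle livers (2.65, SE 0.59, adjusted p = 0.0231, edgeR, and 0.0875 without L12). Mlxipl, which encodes the carbohydrate sensor ChREBP, rose by 0.96 (SE 0.16), and the phosphatidate-forming enzyme Agpat2 by 0.74 (SE 0.13). Of 26 glucose and glycogen genes, 3 rose and 4 fell, close to the shares over all genes tested. Fatty acid oxidation fell in 7 of 30 and rose in 0, with a median of -0.14. Cpt1a, the gate of mitochondrial fatty acid entry, had 279, 264 and 357 CPM in E2 livers, against 473, 499 and 514 CPM in vehicle livers (-0.72, SE 0.15, adjusted p = 0.00715, edgeR). The uptake protein Cd36 fell by 0.74 (SE 0.16), and without L12 and without L13, 1 and 3 of the 30 fell. Of 18 lipid droplet and lipolysis genes 1 fell: Fitm2, which helps form droplets, by 0.69 (SE 0.15).

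Cholesterol synthesis depended on vehicle library L3. Of 24 genes tested, 4 rose and 1 fell, with a median of 0.56, and all 24 were highest in L3 among the vehicle livers. Without L3, 19 rose and 0 fell. Ebp, a late sterol isomerase, was above in every E2 liver, with 225, 241 and 210 CPM in E2 livers, against 136, 95.6 and 115 CPM in vehicle livers (0.97, SE 0.20). Without L12, L19, L8 or L13 in turn, 1 of the 24 rose. In fatty acid synthesis 7 genes rose without L3.

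Bile acid genes rose in 6 of 25 and fell in 2, with a median of 0.11. Cyp8b1, which makes cholic acid, had 677, 750 and 536 CPM in E2 livers, against 395, 298 and 373 CPM in vehicle livers (0.88, SE 0.16, adjusted p = 0.00465, edgeR). Hsd3b7, an early step of bile acid synthesis, rose by 0.88 (SE 0.14), and Nr0b2, the repressor SHP, rose by 1.14 (SE 0.24). The canalicular exporters Abcc2 and Abcb4 fell by 0.89 (SE 0.22) and 0.49 (SE 0.13). Apolipoprotein genes rose in 6 of 24 and fell in 2, with a median of 0.31. After removal of the length trend 3 rose and 2 fell, with a median of 0.10. Apoa1, the main protein of high-density lipoprotein, had 10600, 12650 and 10810 CPM in E2 livers, against 7911, 3744 and 4618 CPM in vehicle livers, while Apoa4, which is induced in fatty liver, fell by 1.09 (SE 0.29). Without L12, 0 of the 24 apolipoprotein genes rose and 1 fell, and 2 of the 25 bile acid genes rose and 0 fell. Vehicle library L8 was the lowest vehicle liver in 21 of the 25 bile acid genes. With L8 left out, 5 bile acid genes rose and 5 fell, with a median of 0.05.

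Some genes of secreted plasma proteins rose, where 9.81% of all genes tested rose and 12.3% fell. Coagulation and fibrinolysis genes rose in 8 of 24 and fell in 1, with a median of 0.36. F7, the factor VII gene, had 80.7, 74.2 and 70.5 CPM in E2 livers, against 39.2, 29.9 and 47.2 CPM in vehicle livers (0.95, SE 0.19, adjusted p = 0.00782, edgeR). F11 rose by 0.78 (SE 0.15) and F10 by 0.69 (SE 0.14), and the anticoagulant Pros1 fell by 0.55 (SE 0.12). Complement genes rose in 8 of 23, of which C1qa, C1qb and C1qc are also macrophage genes. C8g, part of the membrane attack complex, had 475, 427 and 413 CPM in E2 livers, against 222, 262 and 289 CPM in vehicle livers. Acute phase genes rose in 6 of 25 and fell in 1. After removal of the length trend 2 rose and 2 fell. Without L12, 4 coagulation genes, 3 complement genes and 1 acute phase gene rose. Vehicle library L8 was the lowest vehicle liver in 19 of 24 coagulation genes and 19 of 23 complement genes. With L8 left out, 5 coagulation genes and 4 complement genes rose. Hamp2, a hepcidin gene, had 787, 731 and 541 CPM in E2 livers, against 132, 84.2 and 201 CPM in vehicle livers (2.30, SE 0.46, adjusted p = 0.0143, edgeR, and 0.0632 without L12), and reads may be shared with its copy Hamp. Lect2, a hepatokine, had 215, 204 and 210 CPM in E2 livers, against 109, 129 and 126 CPM in vehicle livers (0.79, SE 0.12, adjusted p = 0.00229, edgeR).

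Among zonation genes, pericentral ones were called only upward and periportal ones both ways. Of 20 pericentral genes 4 rose and 0 fell, with a median of 0.37. Of these 20, 9 had every E2 liver above every vehicle liver, as 20.7% of all genes tested did. Of 20 periportal genes 1 rose and 4 fell, with a median of 0.03. Over all genes tested, 9.81% rose and 12.3% fell. Etnppl, a periportal lyase, fell by 0.98 (SE 0.18), with 68.1, 53.5 and 59.2 CPM in E2 livers, against 88.3, 135 and 133 CPM in vehicle livers. Without L12, 1 pericentral gene rose, and 1 periportal gene fell. Vehicle library L8 was the lowest vehicle liver in 18 of the 20 pericentral genes. With L8 left out, 2 pericentral genes rose, with a median of 0.21. Of 10 hepatocyte markers, 4 rose and 1 fell, with a median of 0.36. The albumin gene Alb had 119200, 106700 and 104900 CPM in E2 livers, against 84210, 64050 and 82370 CPM in vehicle livers. It rose (adjusted p = 0.039, edgeR), but lost its call in 5 of the fits that left out a library.

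Ribosomal protein and complex I genes lost most of their calls when the length trend was removed, and the cause was not tested. Of 34 cytosolic ribosomal proteins, 19 rose and 0 fell with a median of 0.39, and after removal of the length trend 1 rose with a median of 0.11. Of 36 complex I subunits, 6 rose and 1 fell with a median of 0.24, and after removal 0 rose and 1 fell with a median of -0.05. Calls were lost without single libraries as well. Without L12, 1 ribosomal gene rose, and without L3, L19 or L13 in turn, 2, 3 and 3 rose.

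Some of the largest and steadiest changes lay outside these lists. Among increases, Adcy1, an adenylyl cyclase, had 15.2, 14.6 and 10.1 CPM in E2 livers, against 5.19, 1.75 and 1.18 CPM in vehicle livers (2.28, SE 0.54, adjusted p = 0.0221, edgeR). Slc22a26, a member of the organic anion transporter family, had 20.9, 9.78 and 9.23 CPM in E2 livers, against 2.01, 1.31 and 1.83 CPM in vehicle livers. Mrnip, a DNA repair factor, had 14.2, 14.9 and 14.4 CPM in E2 livers, against 5.97, 6.89 and 5.44 CPM in vehicle livers. In all 3 genes the groups were apart, with little spread for Mrnip (1.26, SE 0.15). Adcy1 had an adjusted p of 0.0837 without L12, and Slc22a26 one of 0.0634 without L13 (edgeR).

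Among decreases, several were enzymes of metabolism. Gpt2, the mitochondrial alanine aminotransferase, had 436, 360 and 434 CPM in E2 livers, against 880, 1030 and 974 CPM in vehicle livers (-1.23, SE 0.15, adjusted p = 0.00107, edgeR). Ppat, the first committed step of purine synthesis, had 9.64, 9.13 and 8.90 CPM in E2 livers, against 19.7, 19.9 and 20.8 CPM in vehicle livers. Arsa, a lysosomal sulfatase, had 30.6, 31.0 and 39.7 CPM in E2 livers, against 103, 79.4 and 107 CPM in vehicle livers (-1.51, SE 0.17). The transporter Abcg2 and the arachidonate-activating enzyme Acsl4 fell by 1.04 (SE 0.12) and 1.02 (SE 0.12). Treh, which encodes trehalase, had 4.29, 4.33 and 4.15 CPM in E2 livers, against 13.2, 22.7 and 14.3 CPM in vehicle livers, and Nrg1, an ErbB receptor ligand, fell by 1.83 (SE 0.32). Usp2, a deubiquitinase with a daily rhythm, had 2.31, 1.58 and 10.7 CPM in E2 livers, against 21.7, 37.2 and 33.1 CPM in vehicle livers, with L19 the highest E2 liver as for Dbp (adjusted p = 0.0401, edgeR, and 0.117 without L12). Sprr1a, a cornified envelope protein gene, had 7.20, 8.67 and 13.2 CPM in E2 livers, against 50.3, 225 and 88.3 CPM in vehicle livers, with a wide spread among the vehicle livers (-3.64, SE 0.68, adjusted p = 0.0141, edgeR, and 0.0731 without L12). Prrg4 and Themis, a gene known from T cell development, fell by 3.10 (SE 0.50) and 2.75 (SE 0.51), and the adjusted p of Themis was 0.0519 without L12 (edgeR). The mitochondrial carrier Slc25a30, Crim1 and Trak2, an adaptor of mitochondrial transport, fell by 1.83 (SE 0.26), 1.22 (SE 0.15) and 1.14 (SE 0.14). Sdcbp2 and Alg10b fell by 1.97 (SE 0.59) and 1.82 (SE 0.51), and lost their calls in 5 of the fits that left out a library.

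Whether the E2 effect in ob/ob liver differed from that in DIO liver was tested as an interaction over both models, whose counts stand in separate tables and whose libraries differ in lane name. Of 14171 genes, 2 (0.0141%) differed at an adjusted p under 0.05. Cyp2c40 had a log2 fold change of 3.92 in ob/ob liver and 0.64 in DIO liver, a difference of 3.27 (adjusted p = 0.0207, edgeR). Its level was 336, 321 and 436 CPM in DIO E2 livers, against 263, 213 and 225 CPM in DIO vehicle livers. Each of these was above the ob/ob E2 livers (190, 153 and 154 CPM), while ob/ob vehicle livers had 7.78, 7.86 and 16.8 CPM. CPM of the models were normalized separately and stem from separate sets of libraries, so levels are compared across models only roughly. F2r, the thrombin receptor gene, named after its values were seen, had 15.4, 17.1 and 18.9 CPM in E2 livers of ob/ob mice, against 52.2, 52.5 and 41.1 CPM in their vehicle livers. Its log2 fold change was -1.5 in ob/ob liver and -0.05 in DIO liver (difference -1.47, adjusted p = 0.0285, edgeR). Between 0 and 831 genes differed when single libraries were left out, with 831 without DIO E2 replicate 2 and 224 without L1, and DESeq2's Wald test gave 334.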

How the data were processed

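Raw counts per gene were used as the authors deposited them, made with CASAVA (1.8.2), STAR (2.7.6a) and featureCounts (2.0.0) on RefSeq genes of GRCm39, per the file headers and the submitters' processing notes. The methods of the study name other mapping tools. Deposited tables of the authors' own fold changes and p-values, with 36 columns of normalized counts, were not used. Statistics were run in edgeR (4.0.16) under R (4.3.3): filterByExpr, TMM and the robust quasi-likelihood test with 1 mean per group over the 9 ob/ob libraries, including 3 of PaPE-1, and Benjamini-Hochberg adjustment. CPM and log2 values were computed here from the deposited counts. Total counts of 10470665 to 16911262 set the precision, and intervals for counts cover counting error only. The interaction was fitted over 18 libraries. Scripts were tested on simulated data.

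Members and the 40 gene lists were chosen with earlier results of these data known. Genes named were the 15 largest changes and 10 smallest p per direction (a group mean no lower than 10 CPM, groups apart), up to 8 members of each list by adjusted p, members needed to state what did not pass, the estrogen receptors and near-identical copies. Alternatives were DESeq2 (1.42.0) size factors and Wald test, limma (3.58.1) voom, no filter, at least 10 counts in every library, the 6 libraries alone, removal of each library's length trend (loess, span 0.5) and each library left out.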

Additional observations from a re-analysis of the deposited data

Results flagged for a closer look

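The E2 effect on Cyp2c40 was larger in ob/ob than in DIO liver, by 3.27 on the log2 scale (adjusted p = 0.0207 with edgeR's quasi-likelihood test of the interaction). Vehicle levels were 7.78, 7.86 and 16.8 CPM in ob/ob liver and 263, 213 and 225 CPM in DIO liver, and the level with E2 was higher in DIO liver. These CPM were normalized separately in each model. Without single libraries this adjusted p ranged between 0.000312 and 0.0832, and it passed 0.05 without E2 library L12 (0.0619), without vehicle library L8 (0.0832), without DIO E2 replicate 3 (0.0525) and without DIO vehicle replicate 3 (0.0777). The E2 effect on F2r differed by -1.47 (adjusted p = 0.0285, edgeR), with a range of 0.00335 to 0.138 over the same fits. The model, the count table and the lane name in the labels change together and cannot be told apart.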

How the results depend on the processing

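DESeq2's size factors, its Wald test, voom, both count filters, the 6 libraries alone and removal of the length trend kept the numbers of genes that rose and fell within 1.5 times, at 1008 to 1399 and 1403 to 1829. Removal of the length trend gave the smallest numbers, of which 834 and 1186 were shared with the full fit. With single libraries left out, 344 to 1365 genes rose and 434 to 1963 fell, lowest without L12 and highest without L1. Genes whose E2 effect differed between the models numbered 334 with DESeq2's Wald test and 0 to 831 with single libraries left out. Of 116 called genes named, 9 lost their call with the length trend removed, 14 with no filter on low counts and 46 without L12, and 0 reversed. The causes were not tested. No paired analysis was possible because the labels give no replicate numbers that link E2 and vehicle livers. With 3 livers per group and a median SE of 0.17, small changes may be missed.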
